A study of Mus musculus with 20 samples.

Results

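The genes described here are 37 genes that act when a cell copies its DNA and divides. They were taken by name from a list of DNA replication and mitosis genes that was chosen with earlier results of these data known. All 37 have a row among the 38784 symbols of the deposited count table. Of these, 14 act in S phase: the Mcm2 to Mcm7 helicase subunits, the loading and assembly factors Cdc6, Cdt1 and Gins2, the sliding clamp Pcna, and the nucleotide supply enzymes Rrm1, Rrm2, Tk1 and Tyms. The other 23 act in G2 and M phase: the cyclins Ccna2, Ccnb1 and Ccnb2 with their kinase Cdk1, mitotic kinases and checkpoint proteins, centromere, spindle and cytokinesis proteins, the transcription factor Foxm1, and the proliferation markers Mki67 and Top2a.

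The libraries came from whole livers of 10 FVB/N mice that were 6 to 8 weeks old at injection. Every animal received siRNA in a lipid nanoparticle at 0.5 mg/kg by the tail vein, with 1 injection in 5 days, so the controls carried the same nanoparticle with a scrambled luciferase siRNA in place of the siRNA against Eif3m, which encodes subunit m of the initiation factor eIF3 that brings ribosomes to mRNA. There were 3 control and 3 Eif3m animals at day 9 and 2 of each at day 13, and each animal gave an RNA library and a ribosome footprint library, 20 libraries in all. Day 9 RNA was made with a KAPA mRNA capture kit and day 13 RNA with NeoPrep, so kit and day cannot be told apart in RNA, whereas footprints of both days were made with ART-seq.

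An adult liver cell rarely divides, and most hepatocytes rest outside the cycle until tissue is lost or injured. When a cell enters S phase, E2F factors switch on replication genes such as the Mcm helicase and the nucleotide enzymes. Mitotic genes follow in G2, when the MuvB complex with B-Myb and then Foxm1 activates promoters that carry a cell cycle homology region (CHR), often beside CCAAT boxes. The p53 target Cdkn1a encodes p21, which blocks cyclin-dependent kinases and through the DREAM complex keeps both gene sets low.

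The promoters of the 2 classes held different letters. RefSeq (GRCm38.p6) gave a promoter of 300 bases, from 250 before to 50 after the start site, for 30 of the 37 genes. The letters TTTCCCGC, TTTCGCGC, TTTGCCGC or TTTGGCGC, which an E2F site can have, occurred on either strand in 6 of the 12 S phase genes with a promoter (Mcm3, Mcm5, Mcm6, Mcm7, Cdc6 and Cdt1) and in 1 of 18 G2 and M genes (Cdk1), against 2.26% of 32851 promoters. The CHR letters TTTGAA or TTCGAA occurred in 13 of 18 G2 and M genes and 2 of 12 S phase genes (Mcm2 and Mcm7), against 19.2% of all promoters. CCAAT was present in 16 of 18 and 8 of 12, against 37.4%. No CHR letters occurred in the G2 and M genes Birc5, Ccnb1, Cenpe, Gtse1 and Nusap1. A match describes the letters and is not shown to be a site.

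The 250 bases before the start site are shown for 5 genes whose RNA or footprints changed with Eif3m siRNA. Nusap1, which rose in day 9 footprints, is not shown, and its promoter held no E2F, CHR or CCAAT letters. They run 5′ to 3′ on the gene's strand, with E2F and CHR matches of either strand in capitals. Mki67 lies at chr7:135716380-135716629 on the minus strand, Top2a at chr11:99024190-99024439 on the minus strand, Kif11 at chr19:37376132-37376381 on the plus strand, Mcm7 at chr5:138171884-138172133 on the minus strand (the upstream start of 2), and Tk1 at chr11:117826015-117826264 on the minus strand.
Mki67: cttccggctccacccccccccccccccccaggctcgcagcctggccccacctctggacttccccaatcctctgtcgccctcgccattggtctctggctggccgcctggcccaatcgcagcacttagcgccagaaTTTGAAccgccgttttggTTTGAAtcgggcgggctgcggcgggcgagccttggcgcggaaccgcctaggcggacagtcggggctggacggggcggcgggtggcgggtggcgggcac
Top2a: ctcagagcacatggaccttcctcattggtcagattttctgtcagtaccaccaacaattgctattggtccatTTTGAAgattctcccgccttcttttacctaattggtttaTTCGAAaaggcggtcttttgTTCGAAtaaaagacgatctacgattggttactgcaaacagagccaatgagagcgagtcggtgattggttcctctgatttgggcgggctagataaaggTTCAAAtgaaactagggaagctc
Kif11: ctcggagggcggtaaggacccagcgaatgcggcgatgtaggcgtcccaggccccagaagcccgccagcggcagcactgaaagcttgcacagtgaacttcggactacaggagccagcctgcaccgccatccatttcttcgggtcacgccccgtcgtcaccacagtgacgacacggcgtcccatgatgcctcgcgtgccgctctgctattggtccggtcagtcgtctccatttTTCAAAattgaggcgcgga
Mcm7: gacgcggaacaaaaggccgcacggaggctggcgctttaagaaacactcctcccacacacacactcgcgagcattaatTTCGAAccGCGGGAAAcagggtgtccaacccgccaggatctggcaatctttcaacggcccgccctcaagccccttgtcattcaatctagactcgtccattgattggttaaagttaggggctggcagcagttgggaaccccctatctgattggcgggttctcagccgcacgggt
Tk1: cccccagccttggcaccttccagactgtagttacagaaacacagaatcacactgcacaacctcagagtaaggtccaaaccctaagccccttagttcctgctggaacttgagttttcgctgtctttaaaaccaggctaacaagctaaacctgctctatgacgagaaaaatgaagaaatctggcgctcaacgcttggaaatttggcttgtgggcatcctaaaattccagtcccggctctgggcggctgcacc
Mki67 has a pair of CHR matches, Top2a has 4, and Kif11 has 1 that begins 19 bases before the start. The Mcm7 window holds a CHR match beside an E2F match on the other strand, and the Tk1 window holds neither set of letters.

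Levels are given as CPM, counts scaled to a common library size by TMM within an assay. A gene was called when edgeR's quasi-likelihood test gave a Benjamini-Hochberg adjusted p below 0.05 over all genes tested. Library totals were 27.4 to 39.02 M counts at day 9 in RNA and 4.50 to 7.69 M in footprints. At day 13 they were 4.96 to 26.4 M in RNA, with Eif3m replicate 2 the lowest, and 1.64 to 6.52 M in footprints. The targeted gene was lower at both days. Eif3m RNA was 73.8 to 75.9 CPM in day 9 controls and 7.26 to 8.27 CPM with its siRNA (log2 change -3.27, SE 0.16), and 242 and 341 CPM against 20.3 and 15.2 CPM at day 13 (-4.01, SE 0.21). Its footprints were 73.9 to 78.8 CPM against 5.70 to 6.77 CPM at day 9 (-3.61, SE 0.17) and 76.6 and 78.8 CPM against 5.73 and 2.46 CPM at day 13 (-4.58, SE 0.26). All 37 genes passed the filter on low counts in RNA, but Gtse1, Plk1 and Aurkb had no control library over its cutoff of 0.338 CPM. In footprints 23 passed a cutoff of 1.64 CPM, Kif11, Nusap1 and Bub1b with no control library over it. The 14 genes not tested in footprints were Cdc6, Gins2, Foxm1, Gtse1, Ccna2, Ccnb1, Ccnb2, Aurka, Aurkb, Bub1, Birc5, Cenpa, Cenpe and Prc1.

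At day 9 the summed level of the 23 G2 and M genes was higher with Eif3m siRNA in both assays, and the S phase sum was lower in RNA, where the groups overlapped once Tk1 was left out. The G2 and M RNA sum was 17.1, 9.52 and 11.3 CPM in the control livers and 32.0, 19.97 and 23.1 CPM in the Eif3m livers. In footprints it was 16.2, 9.65 and 10.2 CPM against 37.2, 25.6 and 29.4 CPM. Every Eif3m library lay above every control library in both assays. In RNA this depended on the called genes Top2a and Mki67, without which control replicate 1 lay above Eif3m replicate 2. The S phase RNA sum was 117, 107 and 119 CPM in controls and 105, 90.5 and 95.6 CPM with Eif3m siRNA, again without overlap but in the other direction. Without Tk1 these sums overlapped, at 74.4 to 86.4 CPM and 77.1 to 86.4 CPM, and with unscaled library totals the sums of all 14 overlapped too, at 110 to 122 and 105 to 116 per M counts. The G2 and M sums stayed apart with unscaled totals in RNA, at 9.82 to 17.8 and 23.7 to 35.7 per M counts, and in footprints, at 9.23 to 15.3 and 29.3 to 40.9 per M counts. S phase footprints overlapped, at 154 to 172 CPM and 147 to 155 CPM.

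**Figure D1:**
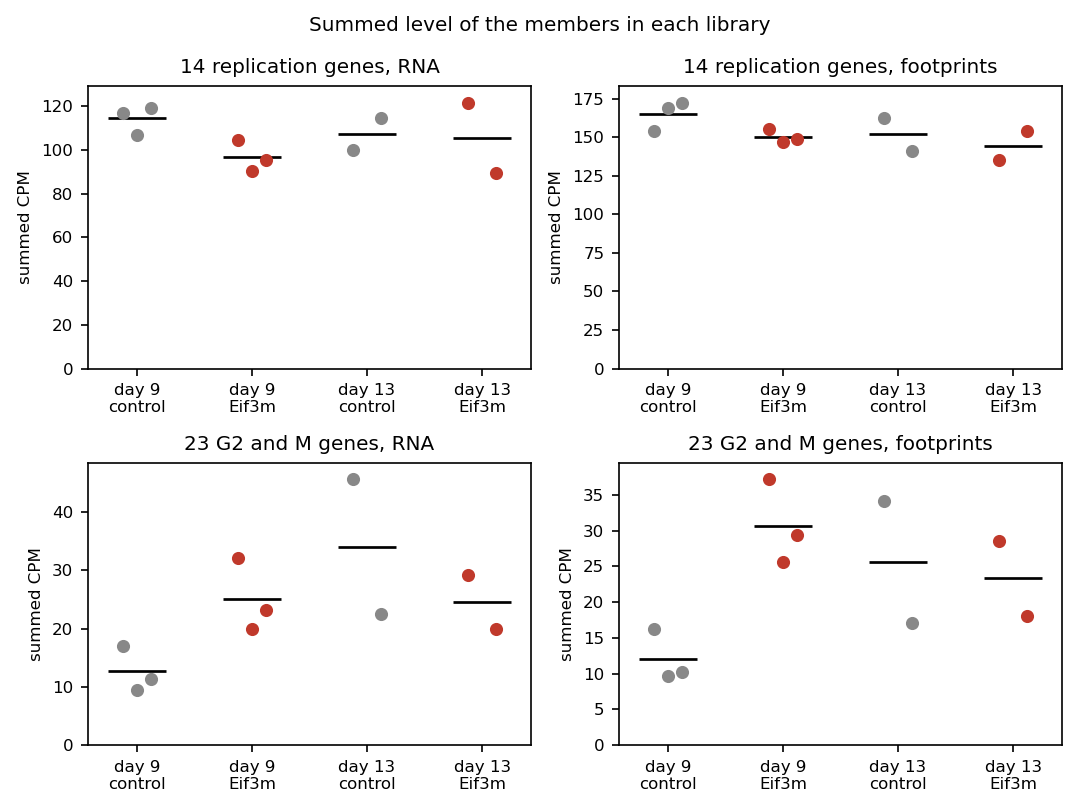
Summed CPM of the 14 replication genes and the 23 G2 and M genes in each of the 20 libraries, by assay (columns), day and siRNA (points are libraries, bars are group means). At day 9 the G2 and M sums of the Eif3m livers (19.97 to 32.0 CPM in RNA) lie above those of the controls (9.52 to 17.1 CPM), and at day 13 the groups overlap.

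In day 9 RNA 2 of the 37 genes rose, Top2a and Mki67, where 2.48% of all 16444 genes tested were called higher, and 1 fell, Tk1, where 3.19% were called lower. Most of the G2 and M class shared a direction: 21 of its 23 genes had a positive log2 change, and the median was 1.19. An unadjusted edgeR p below 0.05 was found for 13 of them, and the share of all genes at that threshold is not given here. In the S phase class 6 of 14 were positive with a median of -0.07, and the median of all genes was -0.0045. Eif3m and control libraries were fully separated, with Eif3m higher, for 13 G2 and M genes and for Mcm7, and with Eif3m lower for Tk1 and Pcna. Over all genes tested 18.9% were separated with Eif3m higher and 20.3% lower. Of the positive G2 and M genes, Gtse1, Plk1 and Aurkb had passed the filter with no control library over its cutoff. Gtse1 and Aurkb were also among the 13 separated. In a bulk tissue fewer cells of a type and less RNA per cell cannot be told apart.

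Top2a encodes topoisomerase II alpha, which untangles sister chromosomes. Its RNA was 1.23, 0.539 and 0.709 CPM in the day 9 controls and 4.86, 2.85 and 2.56 CPM with Eif3m siRNA. The lowest Eif3m liver was above the highest control, and the log2 change was 2.08 (SE 0.43, adjusted p = 0.0142, edgeR). Its footprints were 3.31, 0.551 and 1.79 CPM against 7.32, 5.23 and 4.92 CPM, a log2 change of 1.62 (SE 0.40, adjusted p = 0.0107, edgeR).

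Mki67 encodes Ki-67, which coats mitotic chromosomes and is the standard marker of cycling cells. Its RNA was 1.65, 1.21 and 1.82 CPM in controls and 6.60, 3.74 and 3.71 CPM in Eif3m livers, a log2 change of 1.59 (SE 0.36, adjusted p = 0.0205, edgeR). Footprints were 1.81, 0.551 and 0.598 CPM against 4.07, 2.61 and 5.08 CPM, a log2 change of 1.97 (SE 0.43, adjusted p = 0.0036, edgeR). Neither assay overlapped between the groups. Of the nonzero Mki67 values 60.0% were not whole numbers, as can arise where reads are shared between genes.

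Both RNA calls depended on single day 9 libraries. Top2a and Mki67 were each lost without control replicate 2, control replicate 3 or Eif3m replicate 1, and Mki67 also without control replicate 1. Their changes in those fits stayed between 1.27 and 1.99. With day 9 fitted alone 11 of the 37 rose, the others being Bub1, Bub1b, Gtse1, Mcm7, Kif11, Ccna2, Aurkb, Cenpe and Foxm1, and Tk1 fell, where 10.5% of all genes were called higher in that fit and 12.7% lower. Gtse1 and Aurkb had passed the filter of the main fit with no control library over its cutoff. DESeq2 called 6 higher and 1 lower, against 4.78% and 6.01% of all genes with an adjusted p. With unscaled library totals edgeR called 7 higher and 1 lower, against 5.36% and 2.21%.

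Tk1, thymidine kinase, which salvages thymidine for DNA synthesis, moved against the mitotic genes. Its RNA was 30.9, 32.6 and 33.0 CPM in controls and 18.1, 13.4 and 17.8 CPM with Eif3m siRNA. The groups were far apart relative to their spread, and the log2 change was -0.97 (SE 0.17, adjusted p = 0.0072, edgeR). Its footprints were 34.8, 59.7 and 55.3 CPM against 36.6, 23.8 and 26.6 CPM, where control replicate 1 lay below the highest Eif3m liver. They changed by -0.79 (SE 0.19, adjusted p = 0.010, edgeR). The call in footprints was lost without control replicate 2, Eif3m replicate 2 or Eif3m replicate 3. In RefSeq Tk1 overlaps Afmid, an enzyme of tryptophan breakdown that is abundant in liver, and reads of the overlap cannot be assigned without strand. Afmid RNA also fell, by 0.59 on the log2 scale (SE 0.13, adjusted p = 0.0196, edgeR), from 91.9 to 116 CPM in controls to 64.0 to 76.1 CPM. Its part in the Tk1 result was not tested.

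**Figure D2:**
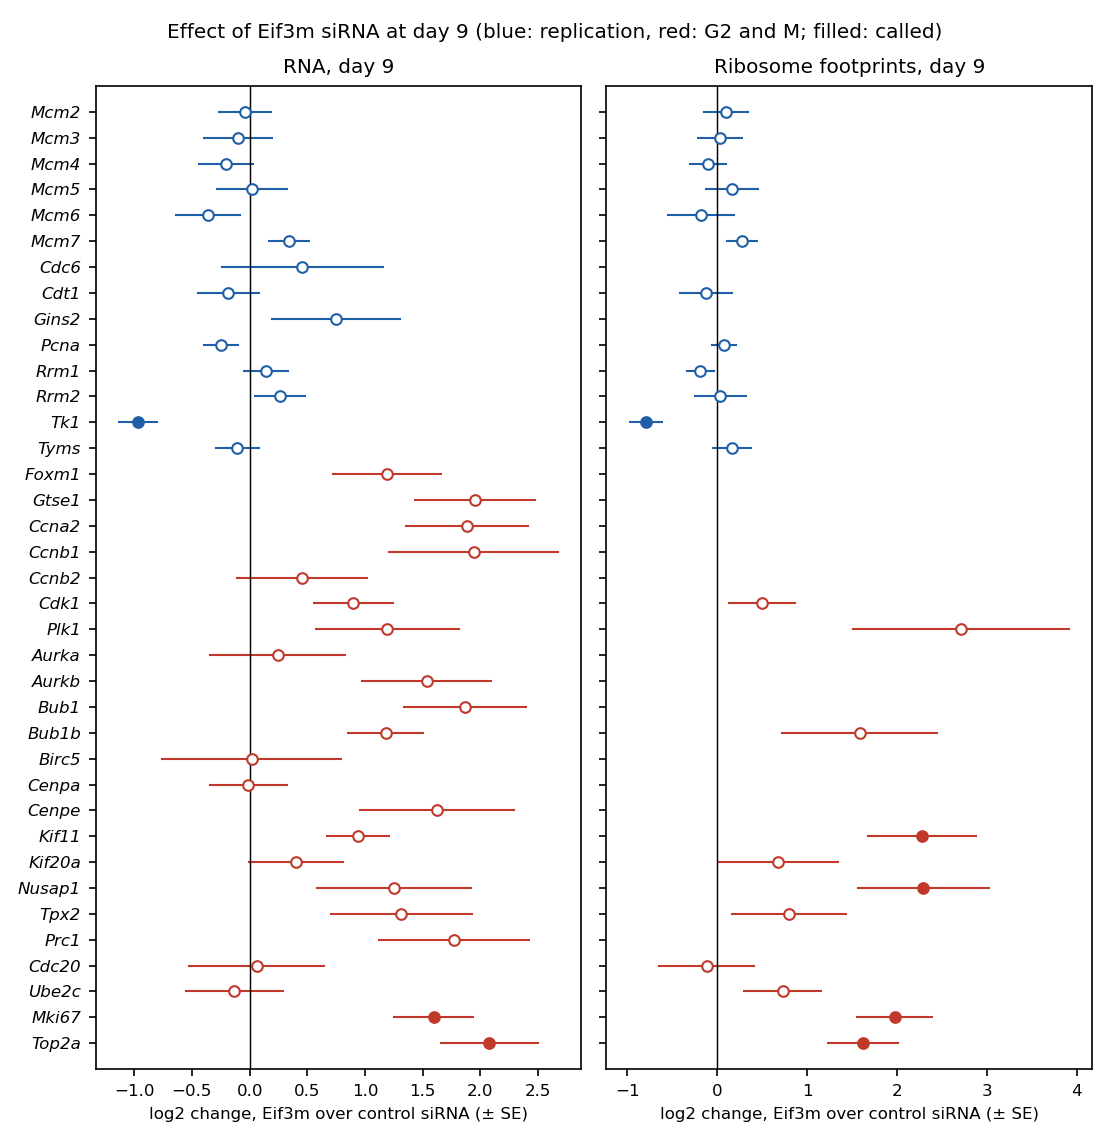
Log2 change with Eif3m siRNA at day 9 for each gene, with its standard error, in RNA (left, 37 genes) and footprints (right, the 23 tested). Replication genes (blue) scatter about 0 apart from Tk1, and most G2 and M genes (red) lie to the right. Filled points are the genes called.

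The cyclins and Cdk1 were positive in day 9 RNA in 4 of 4, with none called. Ccna2, cyclin A2, which drives S phase and G2, was 0.350, 0.180 and 0.185 CPM in controls and 1.02, 0.692 and 0.914 CPM with Eif3m siRNA, a log2 difference of 1.88 (SE 0.54, adjusted p = 0.0604, edgeR). Cdk1, the kinase of mitotic entry, was 0.666, 0.744 and 1.17 CPM against 2.03, 1.04 and 1.78 CPM, and these groups overlapped. Ccnb2, cyclin B2, overlapped as well, at 0.359 to 1.02 CPM and 0.476 to 1.11 CPM. Ccnb1, cyclin B1, had at most 0.290 CPM in any day 9 RNA library. Of its nonzero values 84.2% were not whole numbers, as can arise where reads are shared between genes.

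The 6 mitotic kinases and checkpoint genes all had positive RNA changes, with a median of 1.19, and none was called. Plk1 and Aurkb had passed the filter with no control library over its cutoff. Bub1 and Bub1b encode kinases of the spindle checkpoint that halts anaphase until chromosomes attach. Bub1 was 0.175, 0.077 and 0.123 CPM in controls and 0.653, 0.324 and 0.392 CPM in Eif3m livers, a log2 difference of 1.87 (SE 0.54, adjusted p = 0.0629, edgeR). Bub1b was 0.385, 0.462 and 0.401 CPM against 1.11, 0.757 and 0.992 CPM, a difference of 1.18 (SE 0.33, adjusted p = 0.0583, edgeR). Both were separated without overlap. Aurkb, the kinase that corrects chromosome attachment, was 0.105, 0.154 and 0.123 CPM against 0.387, 0.367 and 0.392 CPM and differed by 1.53 (SE 0.57, adjusted p = 0.14, edgeR). Plk1, a kinase of mitotic entry, was 0.245, 0.180 and 0.123 CPM against 0.725, 0.324 and 0.209 CPM, where 1 Eif3m liver lay below the highest control. Birc5 (survivin) and Aurka had RNA differences of 0.02 and 0.24 and overlapped between groups. Gtse1, which restrains p53 in G2, and the activator Foxm1 differed by 1.95 (SE 0.53, adjusted p = 0.0514, edgeR) and 1.19. Gtse1 was at 0.280 CPM or less in the controls, and it too had passed the filter with no control library over its cutoff.

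Among spindle and cytokinesis genes, Kif11 and Nusap1 rose in footprints. Kif11 encodes the motor that pushes spindle poles apart. Its footprints were 0.451, 0.414 and 0.150 CPM in controls and 1.42, 1.45 and 2.31 CPM with Eif3m siRNA, 7 counts in all against 32, for a log2 change of 2.28 (SE 0.62, adjusted p = 0.0157, edgeR). Nusap1, which bundles microtubules at chromosomes, had 0.602, 0.138 and 0.150 CPM against 1.22, 1.16 and 2.15 CPM, a log2 change of 2.29 (SE 0.74, adjusted p = 0.0413, edgeR). Neither overlapped between groups, and neither was called in RNA. Both calls rest on few footprints and were lost with DESeq2. Kif11 was also lost without day 9 control replicate 3 or Eif3m replicate 3, and Nusap1 without day 9 control replicate 2 or 3, Eif3m replicate 2 or either day 13 control. Without day 9 Eif3m replicate 3, or with day 9 fitted alone, Nusap1 did not pass the filter. Kif11 RNA was 0.841, 0.539 and 0.709 CPM against 1.45, 1.08 and 1.46 CPM (log2 difference 0.94, SE 0.28, adjusted p = 0.0674, edgeR). Nusap1 RNA was 0.385, 0.128 and 0.154 CPM against 0.677, 0.411 and 0.470 CPM. Prc1, Cenpe and Tpx2 had positive RNA differences of 1.77, 1.63 and 1.32, with the groups of Tpx2 overlapping. Kif20a, a cytokinesis motor, differed by 0.40 and overlapped. Cenpa, the centromeric histone, differed by -0.01 in RNA and overlapped. The anaphase genes Cdc20 and Ube2c were near 0 in RNA as well, at 0.06 and -0.13.

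In day 9 footprints 4 of the 23 genes tested rose, Mki67, Top2a, Kif11 and Nusap1, where 6.84% of 12213 genes were called higher, and Tk1 fell, where 7.9% were called lower. Counting all 37, tested or not, 14 were fully separated with Eif3m higher, 13 of them in the G2 and M class and the other being Gins2, and none with Eif3m lower. No share over all genes is given for that count. It includes genes with few footprints, such as Ccnb1 with 1.67 control and 6.0 Eif3m counts. Of the 23 tested, 5 were separated with Eif3m higher (the 4 called and Ube2c) and none lower, where 15.7% and 16.3% of all genes tested were. Of these 5, Kif11 and Nusap1 had passed the filter with no control library over its cutoff. With no filter on low counts 22 of 23 G2 and M genes were positive with a median of 1.58, against 8 of 14 and 0.01 for the S phase class, and Bub1 and Aurka were called as well, where 3.87% of all genes were called higher and 4.89% lower. The median of the G2 and M class was 1.58 also with Bub1 set to its lower bound (3 counts over the control group). Bub1 footprints rounded to 0 in every day 9 control and were 0.814, 0.581 and 0.154 CPM in the Eif3m livers. Cenpa footprints, unlike its RNA, were separated, at 0.451, 0.551 and 0.299 CPM against 1.42, 1.02 and 1.08 CPM. Ccna2 footprints were 0.451, 0 and 0.299 CPM against 1.63, 1.16 and 0.769 CPM, also separated. DESeq2 called only Top2a and Mki67 higher and Tk1 lower, against 4.57% and 5.76% of all genes.

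The S phase genes other than Tk1 gave no call at day 9 in either assay. The Mcm2 to Mcm6 RNA differences ran from -0.36 (Mcm6) to 0.02 (Mcm5). Mcm7 RNA was 12.8, 12.4 and 13.7 CPM in controls and 16.4, 18.2 and 14.8 CPM in Eif3m livers, without overlap but not called (log2 difference 0.34, SE 0.18). Pcna RNA was 29.0, 26.9 and 27.4 CPM against 25.5, 20.8 and 24.1 CPM, also separated and not called. Rrm2, the limiting subunit of ribonucleotide reductase, overlapped between groups at 1.57 to 2.13 CPM and 1.96 to 2.66 CPM. Its partner Rrm1 (9.44 to 10.5 CPM and 10.1 to 12.1 CPM), the thymidylate synthase Tyms (5.79 to 6.78 CPM and 5.42 to 6.71 CPM) and the licensing factor Cdt1 (2.26 to 4.17 CPM and 2.37 to 2.72 CPM) overlapped too. Cdc6 and Gins2 were at 0.584 CPM or less in every day 9 RNA library.

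**Figure D3:**
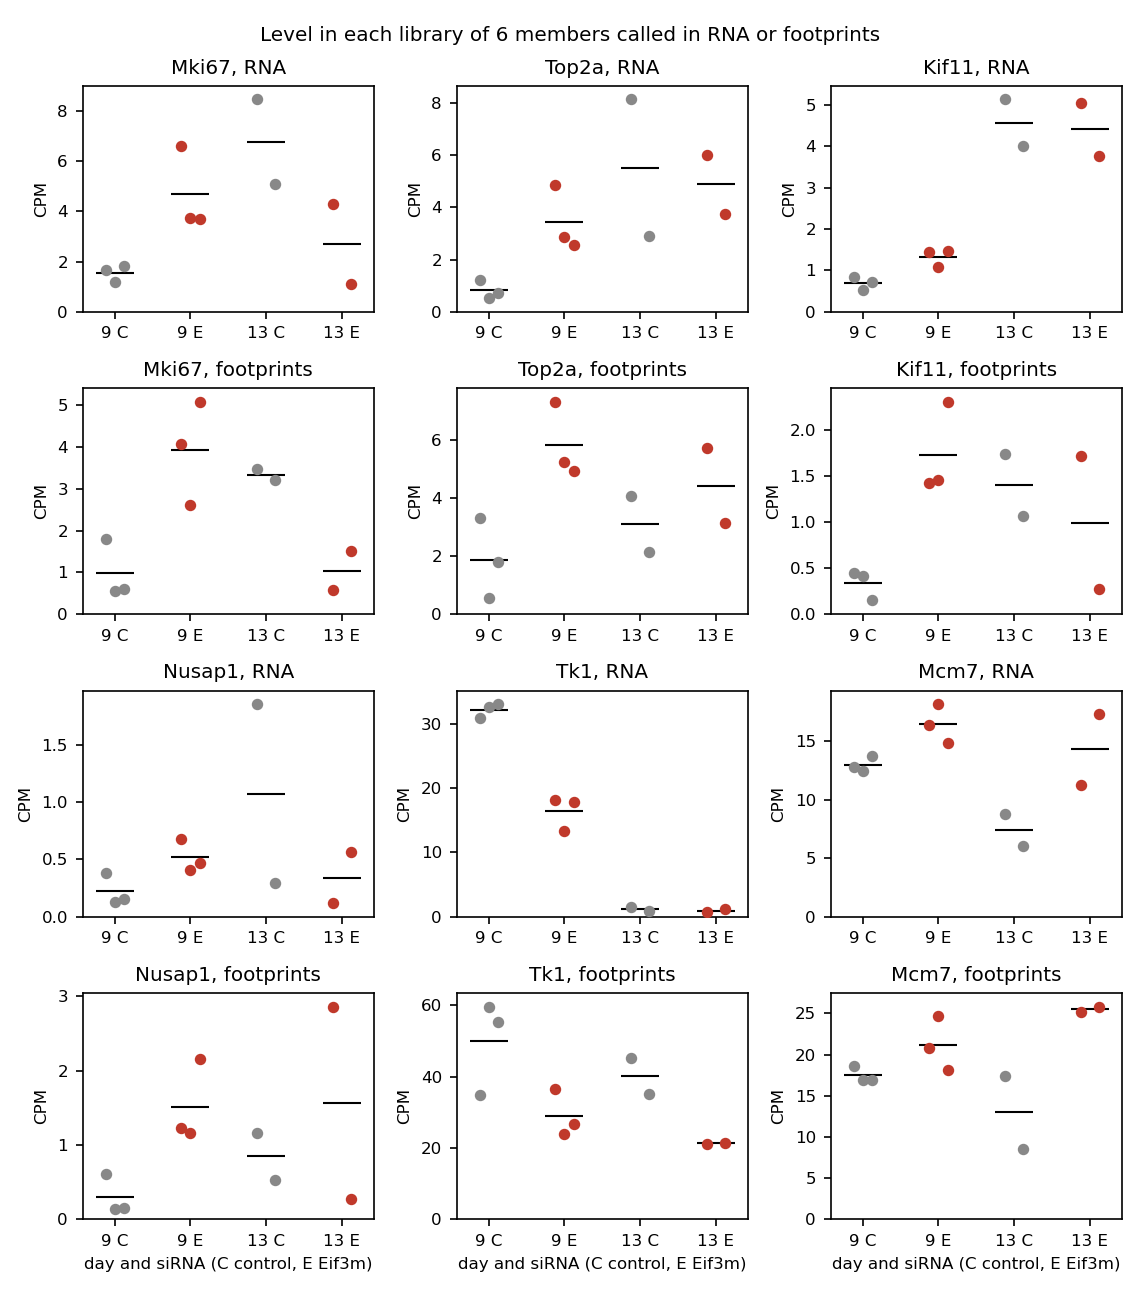
CPM in each library of 6 genes called in RNA or footprints, at day 9 (9) and day 13 (13) with control (C, grey) or Eif3m (E, red) siRNA, with bars at group means. Mki67 footprints are high in the day 9 Eif3m livers (2.61 to 5.08 CPM) and in the day 13 controls (3.20 and 3.48 CPM).

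At day 13 the G2 and M genes no longer lay higher with Eif3m siRNA. Their RNA sum was 45.7 and 22.4 CPM in controls and 29.2 and 19.9 CPM with Eif3m siRNA, and the footprint sum was 34.2 and 17.0 CPM against 28.6 and 18.0 CPM. Of the 37, Mcm7 rose and Mcm4 fell in RNA, where 6.09% and 9.87% of all genes were called higher and lower. Mcm7 rose and Tk1 fell in footprints, where the shares were 6.12% and 6.26%. Full separation was found for 4 genes higher and 9 lower in RNA (18.0% and 29.1% of all genes). In footprints it was found for 6 and 6 of all 37, and for 5 and 5 of the 23 tested, where 28.1% and 27.1% of all genes tested were separated. G2 and M genes were positive in 8 of 23 in RNA, with a median of -0.50, against a median of -0.16 over all genes.

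Mcm7, a subunit of the replicative helicase, was 8.80 and 6.05 CPM in day 13 control RNA and 11.3 and 17.3 CPM with Eif3m siRNA (log2 change 0.90, SE 0.25, adjusted p = 0.0255, edgeR). Its footprints were 17.4 and 8.52 CPM against 25.2 and 25.8 CPM (log2 change 0.99, SE 0.28, adjusted p = 0.0214, edgeR). Both assays were separated in the same direction. The call was lost in each assay without control replicate 2 or Eif3m replicate 2, and in RNA with the day fitted alone. Mcm7 overlaps Ap4m1 and hosts 3 microRNAs, and Ap4m1 RNA and footprints differed by -0.57 and 0.50 at day 13 with neither called.

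Mcm4, another helicase subunit, was 6.28 and 7.45 CPM in control RNA and 3.94 and 1.88 CPM with Eif3m siRNA (log2 change -1.10, SE 0.34, adjusted p = 0.0451, edgeR). Its footprints overlapped, at 5.22 and 4.26 CPM against 5.15 and 3.69 CPM. The RNA call was lost with DESeq2 size factors, with unscaled library totals, with the day fitted alone, without any 1 of the day 9 libraries, and without day 13 control replicate 2 or Eif3m replicate 2. Tk1 footprints were 45.3 and 35.2 CPM in controls and 21.2 and 21.5 CPM with Eif3m siRNA (log2 change -0.91, SE 0.28, adjusted p = 0.0447, edgeR). That call was lost with unscaled library totals, without day 9 Eif3m replicate 3 and without any 1 of the 4 day 13 libraries. Afmid footprints at day 13 were 69.0 and 88.4 CPM against 63.0 and 78.7 CPM, which overlap. Mcm2 and Mcm3 footprints were also separated and higher with Eif3m siRNA, at 3.48 and 2.13 CPM against 4.01 and 6.01 CPM and at 3.48 and 2.66 CPM against 4.58 and 6.97 CPM, and neither was called. Rrm2 footprints were 7.54 and 3.73 CPM against 0.573 and 3.01 CPM, separated and not called (log2 difference -1.20, SE 0.51).

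The mitotic genes called at day 9 were not called at day 13. Top2a RNA was 8.13 and 2.90 CPM in day 13 controls and 6.00 and 3.76 CPM with Eif3m siRNA (log2 difference -0.11, SE 0.49), and its footprints were 4.06 and 2.13 CPM against 5.73 and 3.14 CPM. Kif11 RNA was 5.14 and 4.01 CPM against 5.06 and 3.76 CPM. Nusap1 RNA was 1.85 and 0.290 CPM against 0.118 and 0.564 CPM. In footprints, Kif11 was 1.07 and 1.74 CPM in controls against 0.273 and 1.72 CPM with Eif3m siRNA. Nusap1 footprints were 0.533 and 1.16 CPM against 0.273 and 2.86 CPM, and both genes had 7 footprint counts or fewer in each group. All of these overlapped between groups. Cdk1 RNA was 3.23 and 1.79 CPM against 1.06 and 1.32 CPM, separated with Eif3m lower and not called (log2 difference -1.13, SE 0.50). Foxm1 and Aurka were separated with Eif3m higher, but on at most 0.588 and 1.13 CPM.

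Mki67 was the gene whose siRNA effect in RNA differed between the days. Day 13 RNA was 8.47 and 5.08 CPM in controls and 4.29 and 1.13 CPM with Eif3m siRNA, lower in both Eif3m livers though not called (log2 difference -1.10, SE 0.46, adjusted p = 0.12, edgeR). The effect at day 13 minus that at day 9 was -2.70 (SE 0.58, adjusted p = 0.0467, edgeR), 1 of 37 called where 1.23% of all genes were called in either direction. The call was lost in 8 of the 10 fits that left out 1 library, with changes from -2.26 to -2.79, and DESeq2 called Top2a as well, where it called 5.41% of all genes with an adjusted p. In footprints the difference was -3.33 (SE 0.84, adjusted p = 0.0721, edgeR), and none of 23 genes was called, against 0.819% of all genes. An unadjusted edgeR p below 0.05 was found for 5 of the 23, and the share of all genes at that threshold is not given here. DESeq2 gave an adjusted p for 10 of the 23, not for Mki67, and called none of them. Day 13 Mki67 footprints were 3.48 and 3.20 CPM in controls and 0.573 and 1.5 CPM with Eif3m siRNA. Bub1, Ccnb1, Prc1 and Mki67 were separated in RNA in opposite directions, higher at day 9 and lower at day 13, where 3.06% of all genes tested were. Mki67, Ube2c and Gins2 were so in footprints, the first 2 among the 23 tested, against 1.63% of all genes tested.

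**Figure D4:**
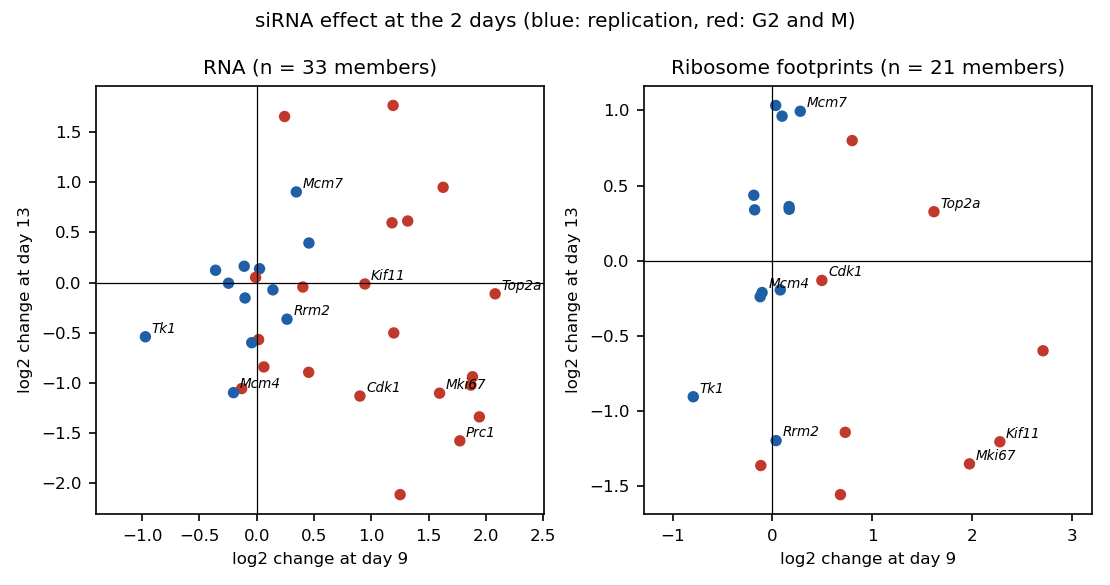
Log2 change with Eif3m siRNA at day 9 (horizontal) and day 13 (vertical) for genes tested with over 3 counts in each day 13 group, 33 in RNA and 21 in footprints, without error bars. Most G2 and M genes (red) are positive at day 9, and they spread to both sides of 0 at day 13.

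Control footprints of the 2 days were set side by side. Control footprints of the G2 and M class summed to 9.65 to 16.2 CPM at day 9 and 17.0 and 34.2 CPM at day 13. None of the 23 genes tested was called between days in control footprints by edgeR, where 10.3% of all genes were. DESeq2 called none of the 13 to which it gave an adjusted p. Of the 23, 3 had an unadjusted edgeR p below 0.05, a threshold at which no share over all genes is given. Mki67 went from 0.551 to 1.81 CPM at day 9 to 3.20 and 3.48 CPM at day 13 (log2 difference 1.75, SE 0.64, adjusted p = 0.0886, edgeR). In Eif3m footprints Mki67 fell between the days by 1.58 on the log2 scale (SE 0.53, adjusted p = 0.0414, edgeR), the only 1 of 23 called where 18.9% of all genes were. That call was lost in 5 of the fits that left out 1 library, and Mki67 had no adjusted p with DESeq2 and was not tested when a mean of 5 CPM was required. The day and anything that changed with it cannot be told apart.

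Control RNA and control footprints gave different ratios between the days for several genes, and the RNA kit changed between them. Tk1 RNA averaged 32.2 CPM at day 9 and 1.196 CPM at day 13, a ratio of 0.0372, while its footprints averaged 49.9 and 40.2 CPM, a ratio of 0.805. Cdt1 RNA went from 2.97 to 0.048 CPM while its footprints were 3.21 and 4.50 CPM. Mcm2 had ratios of 0.165 in RNA and 0.649 in footprints. In the other direction Rrm1 had ratios of 3.17 and 0.670, and Top2a 6.69 and 1.64. The siRNA effects on Tk1 and Mcm2 had SEs of 0.41 and 0.55 in day 13 RNA, against 0.17 and 0.23 at day 9.

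Translational efficiency, the footprint change beyond the RNA change, was tested for the 27 genes that passed a joint filter. None was called at day 9 or day 13 by edgeR, and DESeq2 called none of the 27 at day 9 or of the 4 with an adjusted p at day 13. Over all genes edgeR called 0.0% at day 9 and 0.0211% at day 13. Kif11 and Cenpa at day 9 and Mcm2 at day 13 had an unadjusted edgeR p below 0.05, a threshold at which no share over all genes is given. The estimates for Mki67 and Top2a at day 9 were 0.39 (SE 0.61) and -0.46 (SE 0.67), and that of Tk1 was 0.17 (SE 0.26).

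Other genes of the cycle gave mixed results. Of 63 other mitotic genes tested in day 9 RNA, Kif23, a cytokinesis motor, rose by 2.03 (SE 0.39, adjusted p = 0.0111, edgeR) and Spc24, a kinetochore subunit, fell by 0.98, with a median of 0.41. In footprints 24 were tested, Kif23 rose (log2 change 3.12, SE 0.79) and Spc24 and Cks2 fell. Kif23 RNA was 0.308 to 0.411 CPM in day 9 controls and 1.23 to 1.81 CPM with Eif3m siRNA. At day 13, Cenpn rose (2.27) and Cdc25b fell (-2.20) in RNA, and none of 24 was called in footprints.

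Of 47 other replication genes tested in day 9 RNA, Mcm10 rose (0.47) and Pold2 (-0.92) and Gmnn (-0.64), the geminin inhibitor of licensing, fell, with a median of 0.02. In day 9 footprints Mcm10 (0.83) and Lig1 (1.10) rose, and Gmnn, Rpa3 and Mcm8 were among those that fell, of 42 tested. Mcm10 rose in all 4 comparisons, by 1.26 in day 13 RNA and 1.73 in day 13 footprints. Its footprints were 54.1 to 66.4 CPM in day 9 controls and 102 to 118 CPM with Eif3m siRNA, and 18.6 and 26.1 CPM against 74.4 and 74.6 CPM at day 13. At day 13 Rfc4, Prim1, Pole and Chaf1b also rose in RNA. In day 13 footprints Prim1 had 0 counts in both controls and 13 and 20 counts with Eif3m siRNA, and Msh6 was among the genes that fell.

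Among the upstream regulators the inhibitor Cdkn1a rose, by 5.79 on the log2 scale in day 9 RNA (SE 0.35) and by 5.15 (SE 0.29) and 5.53 (SE 0.43) in footprints of day 9 and day 13. Cdkn1a RNA was 0.123 to 0.140 CPM in day 9 controls and 6.42 to 7.93 CPM with Eif3m siRNA, and its footprints were 0.598 to 1.24 CPM against 21.5 to 37.8 CPM. Cdkn1a footprints at day 13 were 1.74 and 1.07 CPM against 59.0 and 69.8 CPM, whereas day 13 RNA held 1 count in 1 library of each group. Among the 5 CDK inhibitors tested at day 9, Cdkn1a rose and Cdkn2c fell in both assays. In day 9 RNA 13 of 24 p53 targets tested rose and 1 fell, Trp53inp1 (2.39), Aen (1.72) and Eda2r (3.80) among the risers. In footprints 14 of 21 rose and 3 fell at day 9, and 11 of 21 rose at day 13, whereas in day 13 RNA 6 of 24 rose. The median log2 change of the p53 targets was 1.03 and 0.37 in RNA of day 9 and day 13, and 1.10 and 1.36 in footprints. Over all genes the shares called higher were 2.48% and 6.09% in RNA and 6.84% and 6.12% in footprints. None of 15 E2F and DREAM factors and none of 15 G1 cyclins, kinases and pocket proteins was called in day 9 RNA, nor of the 12 and 12 tested in day 9 footprints. Ccnd1, cyclin D1, was 34.4 to 40.1 CPM in day 9 controls and 18.9 to 44.5 CPM with Eif3m siRNA, which overlap. At day 13 Ccnd1 RNA fell from 4.90 and 2.27 CPM to 0.588 and 0.376 CPM (log2 change -2.74, SE 0.65, adjusted p = 0.0151, edgeR), and E2f8 (-3.31) and Rbl2 (-0.64) fell. Ccnd1 footprints at day 13 were 95.2 and 114 CPM against 58.4 and 62.1 CPM, separated and not called.

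Markers of liver cell types moved with the groups. Alb, the hepatocyte product albumin, averaged 142344 CPM over the 20 libraries, and all 10 hepatocyte markers were detected in every group. At day 9 the summed hepatocyte markers were 153734 to 159410 CPM in control RNA and 111584 to 124351 CPM in Eif3m RNA, and 179117 to 214070 CPM against 118824 to 141519 CPM in footprints. Alb made up most of these sums, at 119285 to 127473 CPM in control RNA and 85385 to 96433 CPM in Eif3m RNA. Of the 10 markers 2 were called lower in RNA (Ass1 and Ttr) and 5 in footprints, Alb among them. Stellate and fibroblast markers summed to 266 to 333 CPM against 338 to 401 CPM in RNA (Col3a1 called higher, of 10) and to 508 to 577 CPM against 696 to 775 CPM in footprints (4 of 10 higher: Col1a1, Col3a1, Col1a2 and Pdgfrb). Kupffer and macrophage markers summed to 359 to 422 CPM against 253 to 298 CPM in RNA, with 1 of 12 higher (Lyz2) and 4 lower (Clec4f, Vsig4, Cd163 and Marco). In footprints the Kupffer sums overlapped, at 462 to 578 CPM and 444 to 489 CPM, with 2 of 12 higher and 3 lower. Monocyte and neutrophil sums overlapped in RNA, at 8.66 to 10.2 CPM and 10.0 to 12.6 CPM. In footprints they were 30.1 to 36.8 CPM against 47.8 to 52.9 CPM, with Elane at 0 in both groups. Of 5 tested in footprints, 2 were called higher (Itgam and S100a9) and 1 lower (Ly6g). T, NK and B cell markers overlapped at 5.49 to 9.39 CPM and 5.30 to 7.45 CPM in RNA, as did the endothelial sums at 372 to 411 CPM and 394 to 450 CPM (Lyve1 higher). Cholangiocyte markers overlapped too, at 39.2 to 43.8 CPM and 40.8 to 45.1 CPM, and the footprint sums of all 3 of these lists overlapped as well. The part of these cells in the day 9 result was not tested.

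Erythroid markers differed between the day 13 controls. Their sum was 1264 CPM in RNA of control replicate 1, the library with the G2 and M sum of 45.7 CPM, and 435 CPM in control replicate 2, against 231 and 238 CPM with Eif3m siRNA. In footprints it was 2865 and 918 CPM against 719 and 426 CPM. At day 9 the erythroid sums overlapped, at 454 to 586 CPM in control RNA and 294 to 520 CPM in Eif3m RNA. Over all genes 9.87% were called lower in day 13 RNA. There 10 of 12 Kupffer markers fell, with 1 gene counted under both Emr1 and Adgre1. Also lower were 4 of 7 erythroid genes (Alas2, Hba-a1, Hbb-b1 and Hbb-bs), 7 of 10 endothelial and 4 of 10 stellate markers. In day 13 footprints 6.26% of all genes were called lower. There 7 of 12 Kupffer, with the same gene under both names, 3 of 10 stellate and 1 of 6 erythroid markers fell. None of 10 endothelial markers was called in those footprints, and their sums overlapped, at 797 to 808 CPM and 736 to 820 CPM. The part of these cell type markers in the day 13 values was not tested.

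The pattern of the 23 genes tested in footprints over the 10 footprint libraries was set beside every other gene tested. The 10 genes whose log2 CPM followed the mean standardized level most closely were Gimap4 (Pearson r 0.93), Itm2a (0.91), Ly6a (0.91), Mef2c (0.90), Fam58b, C8b, Aebp2, L3mbtl3, Notch4 and C87436 (0.88). No gene of the cell cycle lists was among them. The mean level joined 12 S phase and 11 G2 and M genes, so it is the pattern of neither class alone. The 10 libraries share the same groups and scaling, so the values describe likeness only.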

How the data were processed

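Liver RNA and ribosome footprints of 10 mice were measured as 20 libraries. The authors deposited expected counts per gene symbol, and 44.3% of values above 0 are fractional. Per the submitters' processing notes cutadapt, Bowtie and Bowtie2 were used. The build, annotation, tool versions, counting rule and strand were not given in the sources used here. Reads shared between overlapping genes or near-identical copies may therefore be split.

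Groups came from the sample titles. Counts were rounded and tested with edgeR 4.0.16 (robust quasi-likelihood, R 4.3.3) in a model of the 4 groups of an assay, after filterByExpr and TMM scaling within that assay. Translational efficiency was the interaction of assay and siRNA over all 20 libraries, whose RNA and footprints of 1 animal are paired by label (r of deviations from 0.137 to 0.503 at day 9). An animal block changed no call. Adjusted p-values are Benjamini-Hochberg over all genes tested, with a threshold of 0.05. Alternatives were DESeq2 1.42.0, other scalings and filters, each day alone, a replicate block and each library left out. The scripts were tested on simulated data.

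The animals of a group are separate, but nothing states how their libraries were batched. Genes with values per library are those called in any siRNA comparison plus Mki67, Top2a, Tk1, Ccnd1 and Cdkn1a, with others added after their values were seen. From each pathway list up to 4 called genes with the smallest p in a comparison were named. More were named among the other replication genes in day 9 footprints and day 13 RNA. The 37 genes, the pathway and marker lists and the naming rule were chosen with earlier results of these data known. Emr1 and Adgre1 are names of 1 macrophage gene, which the Kupffer sums and counts therefore include under both names. Ighm is not analysed here. Results of 1 other replication gene are not reported here.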

Additional observations from a re-analysis of the deposited data

Results flagged for a closer look

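The effect of Eif3m siRNA on Mki67 RNA differed between the days by a test of the difference itself, at -2.70 on the log2 scale (day 13 effect minus day 9 effect, SE 0.58, adjusted p = 0.0467, edgeR). Mki67 was higher with Eif3m siRNA in 3 of 3 day 9 livers and lower in 2 of 2 day 13 livers than in every control of the same day. The kit also differed between the days in RNA, and its part was not tested. In footprints, made with 1 kit, the difference was -3.33 (SE 0.84, adjusted p = 0.0721, edgeR).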

How the results depend on the processing

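The number of the 37 genes called depended on the settings, while no called gene changed direction: over the single-gene results under alternatives, 166 kept their call and 58 lost it. These results leave out the settings where the gene was not tested or had no adjusted p. In day 9 RNA 3 were called, against 8 with unscaled library totals, 9 with no filter, 1 when a mean of 5 CPM was required, 7 with DESeq2 and 12 with the day fitted alone. In day 13 RNA 2 became 1 with DESeq2 size factors, unscaled totals or 5 CPM, where 1 of the 2 was still called, and 0 with the day alone. The replicate block also gave 1 there, but it called neither Mcm7 (adjusted p = 0.0516, edgeR) nor Mcm4 (adjusted p = 0.0519, edgeR) and called Mki67 lower (adjusted p = 0.0405, edgeR). For the difference of RNA effects 1 became 7 with no filter, 0 at 5 CPM and 2 with DESeq2. In day 9 footprints 5 became 1 at 5 CPM and 3 with DESeq2, and in day 13 footprints 2 became 1 with the replicate block, which did not call Tk1. The difference of footprint effects went from 0 to 1 with no filter, and Eif3m footprints between days from 1 to 0 with the replicate block, and also with 5 CPM, where Mki67 was not tested, and DESeq2, where it had no adjusted p. Leaving out each library gave 1 to 9 calls in day 9 RNA, 0 to 5 in day 13 RNA, 0 to 6 for the difference of RNA effects, 2 to 5 in day 9 footprints, 0 to 2 in day 13 footprints, and 0 to 1 for the difference of footprint effects and for control and Eif3m footprints between days. The 5 CPM filter leaves few of these genes to test, and otherwise the cause was not tested.

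Control and Eif3m libraries of the same number did not deviate together (r from -0.112 to 0.200 in RNA and -0.093 to 0.065 in footprints), so the numbers were not taken as pairs, and the replicate block changed no other count of calls by more than 1.5 times. Unscaled totals moved the median of all genes in day 9 RNA from -0.0045 to 0.12. Day 13 has 2 livers a group, and Kif11 and Nusap1 footprints rest on 7 and 6 control counts at day 9.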
